A study of Mus musculus with 6 samples.

Results

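The constitutive proteasome genes were examined in the skin of C3H/HeJ mice, an inbred strain in which alopecia areata, an autoimmune hair loss with lymphocytes around the growing follicle, can arise spontaneously. Alopecic skin from 3 mice labelled as having alopecia areata was compared with skin from 3 unaffected mice of the same strain, with 1 oligonucleotide array per mouse. No treatment, transgene, age, sex or body site is given for either group in the sources used here. Members were all genes whose single symbol in the platform annotation starts with Psma, Psmb, Psmc, Psmd or Psme, except the interferon-inducible genes Psmb8, Psmb9, Psmb10, Psme1 and Psme2. This gave 40 genes of 18193 measured, each represented by its brightest probe set over the 6 arrays. The choice used symbols and mean level, not the difference between groups.

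The proteasome degrades proteins that carry ubiquitin chains. Its core particle is a barrel of stacked rings: the outer alpha rings gate the entrance, and the inner beta rings hold the proteolytic sites. A regulatory particle caps the barrel. Its ATPase ring unfolds the substrate and feeds it in, and its non-ATPase subunits bind ubiquitin chains and remove them. Under interferon gamma, cells make alternative catalytic beta subunits, which take the place of their constitutive counterparts in new core particles and change the peptides available to MHC class I. The constitutive subunits are made in nearly all cells.

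By class the members were 8 alpha ring genes, 8 beta ring genes, 6 ATPases, 11 non-ATPase subunits, 3 assembly factors named Psmd, 2 other activators and 2 genes that share the symbol but are not subunits. The mean of 37 of the 40 lay at or above that of the median gene. The exceptions were Psmc3ip and the tissue-restricted subunits Psma8, of testis, and Psmb11, of thymus. Psma8 had log2 values between 4.13 and 4.27 and Psmb11 between 4.08 and 4.37, below the lowest array median of 6.11.

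Unaffected replicate 3 stood apart from the other arrays: the mean log2 level of 11 measured hair matrix and shaft markers was 5.26 there, against 13.10 and 13.85 in unaffected replicates 1 and 2 and 11.30 to 12.07 in alopecic skin. The mean of 6 markers of dividing cells was 7.93 there and 9.78 to 11.49 in the other arrays. The mean of 7 T cell markers was 7.26 to 8.41 in alopecic and 6.27 to 6.43 in unaffected skin; 6 of the 7 were higher in each alopecic array than in each unaffected array (6.93% of all genes), Cd4 was lower in each (difference -0.16), and none passed the test over all genes. Basal keratinocyte markers, which check the tissue, were bright in each array, with a mean between 12.76 and 13.27.

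The constitutive proteasome genes differed little between alopecic and unaffected skin. None of the 40 members passed the limma test over all genes at an adjusted p of 0.05, where 0.275% of all genes did (0.264% higher and 0.011% lower); a count of 0 is close to what that share gives for 40 genes and is no result about the members by itself. At an unadjusted p under 0.05, 2 members were higher and 0 lower, against 4.8% and 2.35% of all genes. These counts were 6 and 0 with the mean of all probe sets of a gene and 8 and 3 with estimated array weights. Over all genes, in either direction, 1301 genes had an unadjusted p under 0.05 in the first fit. Of 18193 genes, that number was 1217 with the mean of all probe sets and 2991 with array weights. Against the first fit, the mean of all probe sets gave more such members but fewer such genes over all. The array weights gave more of both. Whether the members exceeded the share over all genes was not tested. The sizes say more: the median log2 difference, alopecic minus unaffected, was 0.14 over the members and -0.01 over all genes, and single members ran from -0.53 (Psmd8) to 0.60 (Psmc3ip). The 95% interval of the difference lay inside 2-fold in both directions for 38 of 40 members and for 74.1% of all genes; the exceptions were Psmd8 and Psmc3ip. It lay inside 1.5-fold for 21 members (44.7% of all genes). Of genes at or above the median mean, 67.5% had the interval inside 2-fold and 29.9% inside 1.5-fold. In bulk skin, fewer cells of a type and less RNA per cell cannot be told apart.

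**Figure D1:**
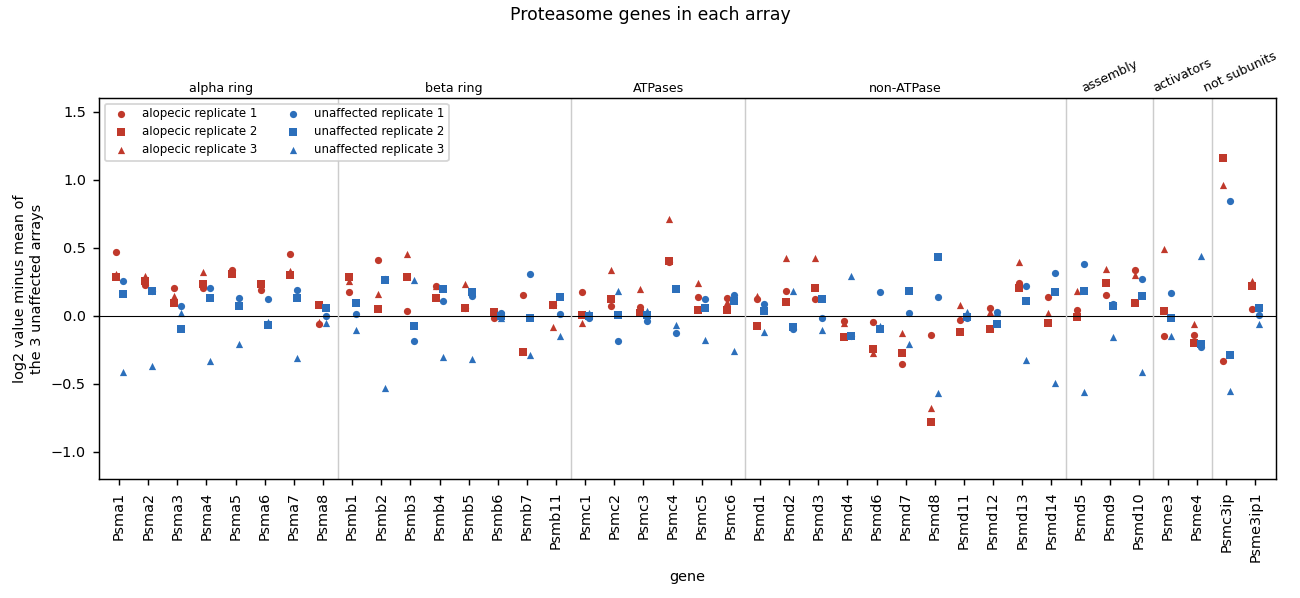
Log2 value of each member in each array, minus the mean of the 3 unaffected arrays for that gene; red marks are alopecic and blue marks unaffected arrays, marker shapes give the replicate, and vertical lines separate the classes. Most marks lie within 0.5 of 0; the alpha ring genes other than Psma8 have their red marks above their blue marks, and Psmd8 and Psmc3ip spread most.

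A difference above 0 was found for 31 of the 40 members (48.6% of all genes). Among genes at or above the median mean the share was 57.1%, with a median difference of 0.05. Without unaffected replicate 3 it was found for 28 members (50.5% of all genes), with a member median of 0.06. Genes at or above the median mean then had a share of 57.0% and a median of 0.05, close to the member median. Centring each array on its median moved the median of all genes to -0.10. It left 25 members above 0 (32.8% of all genes) and a member median of 0.05. Of genes at or above the median mean it left 42.9% above 0, with a median of -0.05. That centring moved all genes alike, and quantile normalization gave medians of 0.15 for the members and -0.02 for all genes. The values below are differences on the deposited scale. In 10 members the 3 alopecic arrays lay above the 3 unaffected arrays, where 6.93% of all genes did so, and in 0 they lay below (6.12% of all genes). Among genes at or above the median mean these shares were 8.1% and 3.95%. With each array centred on its median, 6 members lay above and 2 below, where 4.37% and 10.9% of all genes did. Quantile normalization gave 11 and 0 (6.24% and 6.76% of all genes). Without unaffected replicate 3 the counts were 15 and 3 (13.3% and 14.0% of all genes).

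Of the 10 members whose groups did not overlap, 7 were the alpha ring genes Psma1 to Psma7, that is all of the ring but Psma8. Their log2 differences were between 0.15 and 0.36, with a median of 0.26. Without unaffected replicate 3 they were between 0.08 and 0.22, with a median of 0.16. Psma5 had 12.18, 12.15 and 12.16 in alopecic and 11.98, 11.92 and 11.64 in unaffected replicates 1, 2 and 3, a difference of 0.32 (SE 0.12, limma adjusted p = 0.691). The alopecic arrays agreed closely, and the lowest of them was 0.171 above the highest unaffected array. Psma7 had 12.02, 11.86 and 11.89 in alopecic and 11.75, 11.69 and 11.25 in unaffected skin, a difference of 0.36 (SE 0.16), the largest of the ring. Psma1 had 12.05, 11.87 and 11.89 against 11.84, 11.74 and 11.17, a difference of 0.35 (SE 0.20). In both genes unaffected replicate 3 was the lowest array, and the highest unaffected array came within 0.102 and 0.0324 log2 units of the lowest alopecic one.

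Psma6 had 12.79, 12.83 and 12.83 in alopecic and 12.72, 12.53 and 12.55 in unaffected skin, a difference of 0.22 (SE 0.10). Psma3, whose 3 unaffected arrays lay close together, had 12.95, 12.84 and 12.89 against 12.82, 12.65 and 12.77, a difference of 0.15 (SE 0.10). Here the array that was low in other members was not the lowest. Psma2 had 12.56, 12.59 and 12.63 in alopecic and 12.52, 12.52 and 11.97 in unaffected skin. Psma4 had 12.21, 12.24 and 12.33 against 12.21, 12.14 and 11.68, so that its groups were apart by only 0.00376 log2 units. With each array centred on its median, 3 of the 7 genes stayed apart (4.37% of all genes), and with quantile normalization 6 did (6.24%); all 7 differences were above 0 under either scaling. The T cell markers were higher in the same arrays, and their part in these differences was not tested.

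Psma8, the testis counterpart of an alpha subunit, had 4.13, 4.27 and 4.15 in alopecic and 4.19, 4.25 and 4.14 in unaffected skin, the lowest difference of its class at -0.01 (SE 0.10). Both groups lay in the dim range, where a log2 difference says little.

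The beta ring carries the catalytic subunits, and for these the comparison with the interferon-inducible partners is the most direct. Psmb6, the caspase-like site, was flat: it had 11.43, 11.47 and 11.47 in alopecic and 11.46, 11.44 and 11.43 in unaffected skin, a difference of 0.01 (95% interval -0.22 to 0.24). Its partner Psmb9 had 12.63, 12.30 and 12.16 against 9.82, 9.50 and 9.97, a rise of 2.60 (SE 0.19, limma adjusted p = 0.013). The arrays of Psmb6 overlapped within 0.04 log2 units, while each alopecic array of Psmb9 lay more than 2 log2 units above each unaffected array.

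Psmb7, the trypsin-like site, had 10.55, 10.13 and 10.14 in alopecic and 10.70, 10.38 and 10.11 in unaffected skin, a difference of -0.12 (95% interval -0.62 to 0.38), the lowest of the ring. Its partner Psmb10 had 11.12, 10.97 and 10.58 against 8.59, 8.58 and 8.48, a rise of 2.34 (SE 0.17, limma adjusted p = 0.013). The groups overlapped in Psmb7 and did not in Psmb10. Psmb5, the chymotrypsin-like site and the main target of proteasome inhibitor drugs, had 11.59, 11.59 and 11.77 in alopecic and 11.68, 11.71 and 11.22 in unaffected skin. Its difference was 0.12 (95% interval -0.30 to 0.53) and its groups overlapped. Its partner Psmb8 had 12.59, 12.23 and 11.73 against 9.79, 9.66 and 10.41, a difference of 2.23 (SE 0.30) that missed the threshold (limma adjusted p = 0.0811) although the groups did not overlap.

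Within each array the change of the induced subunit was then set against that of its constitutive partner. The difference of changes was 2.59 (SE 0.20), or 6.02-fold, for Psmb9 over Psmb6, 2.46 (SE 0.18), or 5.5-fold, for Psmb10 over Psmb7, and 2.11 (SE 0.50), or 4.33-fold, for Psmb8 over Psmb5. For each of the 3 pairs every alopecic array lay beyond every unaffected array, with a two-sided exact permutation p of 0.1 (0.1 after Benjamini-Hochberg adjustment over the 3 pairs), the smallest that 3 against 3 arrays can give. The partners had been seen to differ before this comparison was made, so it describes the size of the gap, and the change of the constitutive members is bounded only by the intervals above. Of the 6 fits without 1 array, Psmb9 passed in 2 (limma adjusted p from 0.0263 to 0.0903) and Psmb10 in 3 (0.0332 to 0.0903), while the differences stayed at 2.47 to 2.70 and 2.22 to 2.49.

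**Figure D2:**
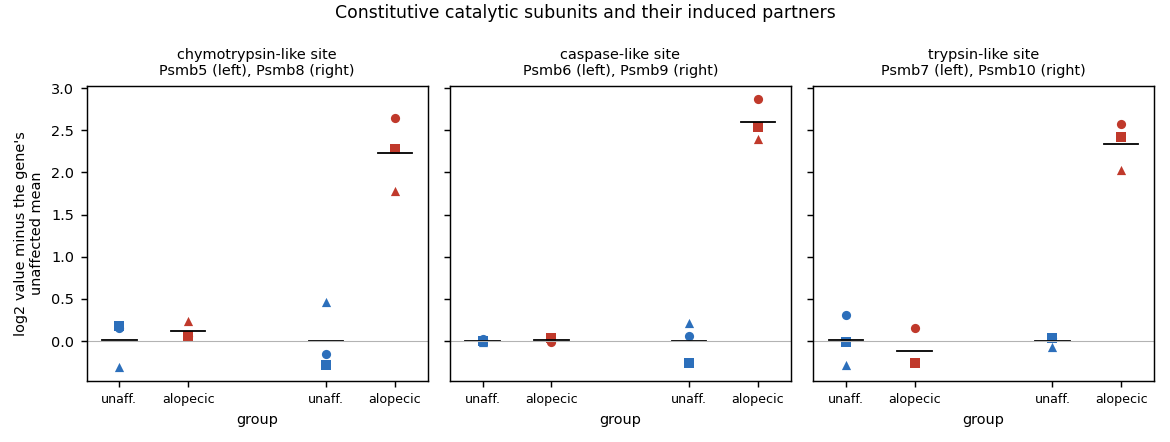
Log2 value of each constitutive catalytic subunit and of its induced partner in each array, minus the gene's unaffected mean, with group means as bars; blue marks are unaffected and red marks alopecic arrays. The alopecic means of Psmb8, Psmb9 and Psmb10 lie 2.23, 2.60 and 2.34 above 0, and those of Psmb5, Psmb6 and Psmb7 lie at 0.12, 0.01 and -0.12.

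Promoters of these genes are shown because partners with the same role in the core particle differed so much in these arrays. They are RefSeq sequences of GRCm38.p6, read in the direction of transcription and ending just before the start site. Capitals mark matches, on either strand, to any of 6 motifs: TGACNNNGC (antioxidant response element core, bound by the factors encoded by Nfe2l1 and Nfe2l2), CCGGAAG (ETS family), GAAA and GAAA with any 2 bases between them (interferon-stimulated response element), TTCNNNGAA (gamma-activated site), CCAAT (NF-Y) and GGGCGG (Sp1). Psmb5 is shown at chr14:54617996-54618145 on the minus strand, Psmb8 at chr17:34198045-34198194 on the plus strand and Psmb9 at chr17:34187331-34187480 on the minus strand, 150 bases each. For Psmb6 the 30 bases at chr11:70525327-70525356 on the plus strand are shown, with the antioxidant element match alone in capitals.
Psmb5: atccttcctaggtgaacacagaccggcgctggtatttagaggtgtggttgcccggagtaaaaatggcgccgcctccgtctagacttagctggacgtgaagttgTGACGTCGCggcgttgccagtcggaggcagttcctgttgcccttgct
Psmb6: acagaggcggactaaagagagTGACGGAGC
Psmb8: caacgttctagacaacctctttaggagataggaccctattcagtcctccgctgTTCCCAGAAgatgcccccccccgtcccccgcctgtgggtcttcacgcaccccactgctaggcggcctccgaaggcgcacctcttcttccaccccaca
Psmb9: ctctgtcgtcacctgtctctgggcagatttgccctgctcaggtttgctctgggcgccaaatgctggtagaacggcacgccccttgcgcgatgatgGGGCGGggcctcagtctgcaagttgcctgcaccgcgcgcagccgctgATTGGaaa
The match in Psmb5 and that in Psmb6 are both of the antioxidant element, 38 and 0 bases before the start site. The Psmb6 stretch was chosen to end at that match, so its likeness to Psmb5 was set by the choice. The window of Psmb6 also holds a GGGCGG match, 176 bases before the start site and outside the stretch. Promoters of the pair Psmb7 and Psmb10 are not shown. The match in Psmb8 is of the gamma-activated site, and those in Psmb9 are of the Sp1 and NF-Y motifs.

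The 33 members with an entry in the promoter table had 36 windows of 300 bases (250 before and 50 after the start). The ETS core was found in 41.7% of the member windows. The share was 8.86% of all 32851 windows and 13% of those of genes on the array. No share was taken over genes as bright as the members. The antioxidant element was found in 16.7% of member windows, 12.4% of all windows and 13.9% of those of genes on the array. GGGCGG was found in 55.6%, 35.7% and 52.3%, and CCAAT in 41.7%, 37.4% and 37.4%. The interferon-stimulated element was found in 8.33%, 3.44% and 3.03%, and the gamma-activated site in 2.78%, 8.3% and 7.21%. Matches of different motifs shared bases in 2 member windows. These shares describe letters in the windows; they were not tested, and a match is not evidence of binding. The ETS core was found in windows of the ATPase, non-ATPase and activator classes and of the genes that are not subunits. In the alpha ring only Psma6 had it, and none of the beta ring and assembly factor windows did. For the 4 classes of subunits and activators, the match nearest to the start site that lies before it with 10 bases on each side is shown: those of Psma6 (chr12:55398683-55398709), Psmc2 (chr5:21786713-21786739), Psmd12 (chr11:107479501-107479527) and Psme4 (chr11:30771712-30771738), all on the plus strand, with the match in capitals.
Psma6: gagccaccacCCGGAAGcccgcggacc
Psmc2: cgcggagctaCTTCCGGtggggaagag
Psmd12: gagcgggcgaCTTCCGGtgcgagtgac
Psme4: tggccccgccCCGGAAGtgacttgagg

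The remaining beta subunits, which build the ring without an active site of their own, had differences between 0.19 and 0.26. Psmb1 was the 1 beta ring member of 8 whose groups did not overlap, where 6.93% of all genes lay apart and higher. That count is no result about the ring by itself. Psmb1 had 12.46, 12.57 and 12.54 in alopecic and 12.30, 12.38 and 12.18 in unaffected skin, a difference of 0.23 (SE 0.11). Psmb3 had 12.15, 12.40 and 12.57 against 11.93, 12.04 and 12.38, the highest difference of the ring at 0.26 (SE 0.18), with overlapping groups. Psmb2 and Psmb4 differed by 0.21 (SE 0.25) and 0.19 (SE 0.16); in Psmb2 unaffected replicate 3 stood at 10.74, below all other arrays at 11.32 to 11.68. Psmb11, which takes the chymotrypsin-like place in the thymic cortex, differed by 0.03 (SE 0.12) in the dim range. Over the 7 genes of the ring other than Psmb11 the median was 0.19, and 0.00 without unaffected replicate 3.

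All 6 ATPases had a difference above 0, with a median of 0.12 (0.08 without unaffected replicate 3). With each array centred on its median, Psmc1 was at -0.05 and the other 5 were above 0, and without unaffected replicate 3 Psmc6 was at -0.04. Psmc4 had the highest difference among subunits of the proteasome: 12.01, 12.02 and 12.33 in alopecic and 11.49, 11.81 and 11.55 in unaffected skin, that is 0.50 (SE 0.15, 95% interval 0.13 to 0.88), or 1.42-fold. Its alopecic arrays were 0.193 or more above its unaffected arrays, but over all genes it did not pass (unadjusted p = 0.0169, limma adjusted p = 0.55). Its second, dimmer probe set differed by 0.31 (SE 0.15). Without unaffected replicate 3 its difference was 0.47 (limma adjusted p = 0.465).

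Psmc1 had the smallest difference of the ATPases, with 10.61, 10.44 and 10.38 in alopecic and 10.42, 10.43 and 10.45 in unaffected skin, or 0.04 (SE 0.11), and its groups overlapped. Psmc2, Psmc3, Psmc5 and Psmc6, of the same ring, differed by 0.18 (SE 0.14), 0.09 (SE 0.10), 0.14 (SE 0.13) and 0.09 (SE 0.14). For these 5 genes the upper end of the 95% interval was at most 0.53.

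The non-ATPase subunits had no common direction: 5 of 11 had a difference above 0 and 6 below, with a median of 0.00. No member of the class had groups that did not overlap, where 6.93% of all genes lay apart and higher and 6.12% lower. A count of 0 in 11 genes is no result about the class by itself. Without unaffected replicate 3, 3 members lay apart and lower (14.0% of all genes) and 1 higher (13.3%). With each array centred on its median, 2 lay apart and lower (10.9%) and 0 higher (4.37%). Psmd8, a subunit of the lid, had the lowest difference of all members, with 11.50, 10.86 and 10.96 in alopecic and 11.78, 12.07 and 11.07 in unaffected skin, or -0.53 (SE 0.31, limma adjusted p = 0.838). Here unaffected replicate 3 lay among the alopecic arrays; without it the difference was -0.82 (limma adjusted p = 0.374) and the groups did not overlap. Psmd13 was highest in the class, with 10.32, 10.29 and 10.48 against 10.30, 10.19 and 9.76, a difference of 0.28 (SE 0.17) with overlapping groups. Without unaffected replicate 3 it was 0.12, and Psmd2 was highest at 0.33.

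Among the scaffolds and ubiquitin-binding subunits, Psmd2 differed by 0.24 (SE 0.14), Psmd1 by 0.07 (SE 0.12) and the ubiquitin receptor Psmd4 by -0.08 (SE 0.16). Psmd14, the enzyme that cuts the ubiquitin chain from the substrate, differed by 0.03 (95% interval -0.54 to 0.60). Its unaffected arrays spread from 11.54 to 12.35 while its alopecic arrays stayed between 11.98 and 12.17. Without unaffected replicate 3 its difference was -0.21 (SE 0.12), and its alopecic arrays lay below unaffected replicates 1 and 2 (12.35 and 12.21). The lid subunits Psmd3, Psmd6, Psmd7, Psmd11 and Psmd12 differed by 0.25 (SE 0.13), -0.19 (SE 0.13), -0.25 (SE 0.14), -0.02 (SE 0.10) and 0.00 (SE 0.10). Psmd7, the partner of Psmd14, had 10.23, 10.31 and 10.46 in alopecic and 10.61, 10.77 and 10.38 in unaffected skin, and the overlap came from unaffected replicate 3 alone. Without that array Psmd7 and Psmd8 were lower at an unadjusted p under 0.05 (0.0389 and 0.0175) and Psmc4 was higher (0.0404), against 4.71% of all genes lower and 5.38% higher in those 5 arrays.

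**Figure D3:**
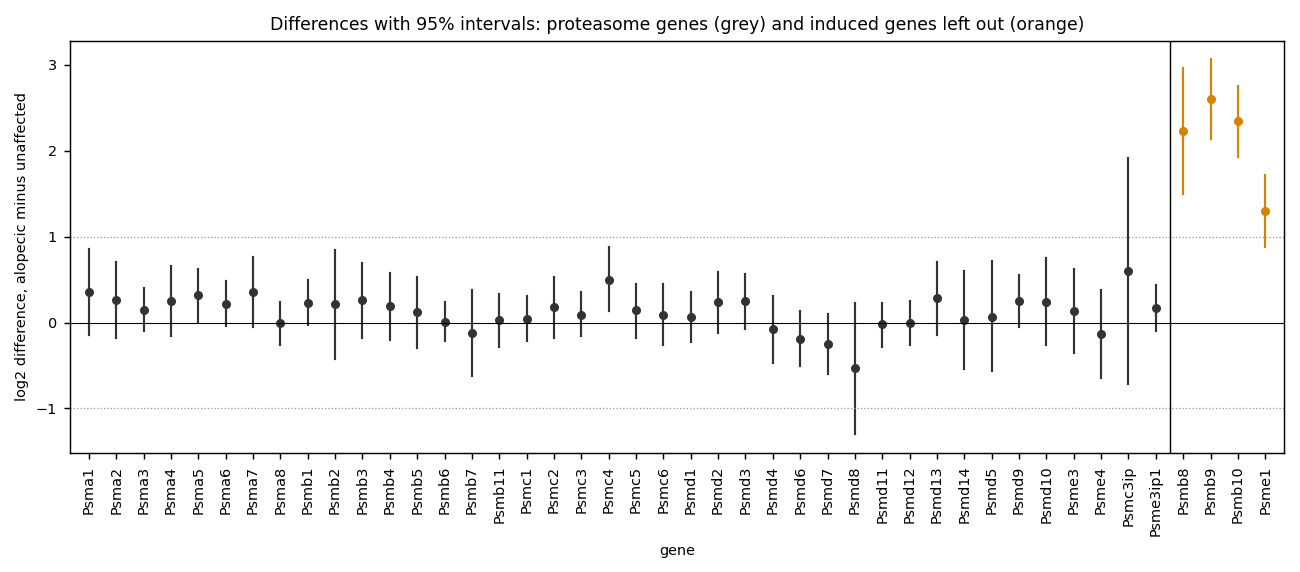
Log2 difference, alopecic minus unaffected, with its 95% interval from the fit for each member in grey and, right of the line, for the induced genes Psmb8, Psmb9, Psmb10 and Psme1 in orange; dotted lines mark 2-fold. The 38 member intervals other than those of Psmd8 and Psmc3ip stay between the dotted lines, and the intervals of the 3 induced catalytic subunits lie above the upper one.

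The assembly factors Psmd5, Psmd9 and Psmd10 carry Psmd names but leave the finished particle. Psmd9 had groups that did not overlap, with 8.31, 8.40 and 8.50 in alopecic and 8.24, 8.23 and 8.0 in unaffected skin, a difference of 0.25 (SE 0.12). Psmd5 had 9.15, 9.10 and 9.29 against 9.49, 9.29 and 8.55, a difference of 0.07 (SE 0.26), and Psmd10, also known as gankyrin, differed by 0.24 (SE 0.21). In Psmd5 and Psmd10 unaffected replicate 3 was the lowest array. The other activators cap the core particle in place of the regulatory particle. Psme3, which encodes the nuclear PA28 gamma activator, had 8.22, 8.40 and 8.86 in alopecic and 8.53, 8.35 and 8.22 in unaffected skin, or 0.13 (SE 0.20). Psme4 had 11.47, 11.41 and 11.55 against 11.38, 11.40 and 12.05, or -0.13 (SE 0.21), and its highest array was unaffected replicate 3. Psme1, the interferon-inducible PA28 alpha gene that the rule leaves out, had 12.51, 12.08 and 12.04 against 11.04, 10.94 and 10.76, a difference of 1.30 (SE 0.17, limma adjusted p = 0.0739). Its groups did not overlap. The 95% interval was 0.88 to 1.72 for Psme1 and -0.36 to 0.62 for Psme3; the difference between these genes was not tested. Psme2 shares its probe set with Psme2b in the platform annotation and is not analysed here.

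The 2 members that are not subunits were Psme3ip1, whose product binds PA28 gamma, at 0.17 (SE 0.11), with 10.17, 10.34 and 10.38 in alopecic and 10.13, 10.18 and 10.06 in unaffected skin, and Psmc3ip, a recombination factor named for its binding to the ATPase subunit Psmc3. Psmc3ip had 6.66, 8.15 and 7.95 in alopecic and 7.83, 6.70 and 6.44 in unaffected skin, the highest difference of all members at 0.60 but with an SE of 0.53. Its arrays spread by over 1 log2 unit within each group, and without unaffected replicate 3 it was at 0.33.

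The spread of the members within groups was small. The median over members of the pooled standard deviation was 0.163, against 0.234 for all genes and 0.295 for genes at or above the median mean. Psmb6 was the steadiest example, with a standard deviation of 0.02 in each group (n = 3). Unaffected replicate 3 was the lowest of the 6 arrays for 22 of 40 members, where it was lowest for 29.1% of all genes and for 35.9% of genes at or above the median mean. Compared with the mean of unaffected replicates 1 and 2 it was lower for 30 members (51.4% of all genes), with a median of -0.23 over all 40. Its 3' minus 5' differences of the actin and Gapdh control probe sets, at 0.39 and 0.31, lay within or just below the range of the other arrays (0.47 to 1.30 and -0.08 to 0.52).

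The members did not move as 1 block in that array. Relative to the mean of unaffected replicates 1 and 2, Psmd8, Psmd5 and Psmb2 were at -0.85, -0.84 and -0.80, Psmd14 at -0.74 and Psma1 at -0.62. Psme4, Psmd4, Psmb3, Psmd2 and Psmc2 were at 0.66, 0.45, 0.39, 0.28 and 0.27. Nfe2l1, which encodes the factor that raises proteasome gene transcription when proteasome activity falls, was 1.03 above it, at 11.62 against 10.55 to 11.18 in the other arrays. Skeletal muscle markers were also highest in this array (mean of 6 genes 14.62, against 11.92 to 14.08), and hair and dividing-cell markers were lowest; their part in these values was not tested.

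**Figure D4:**
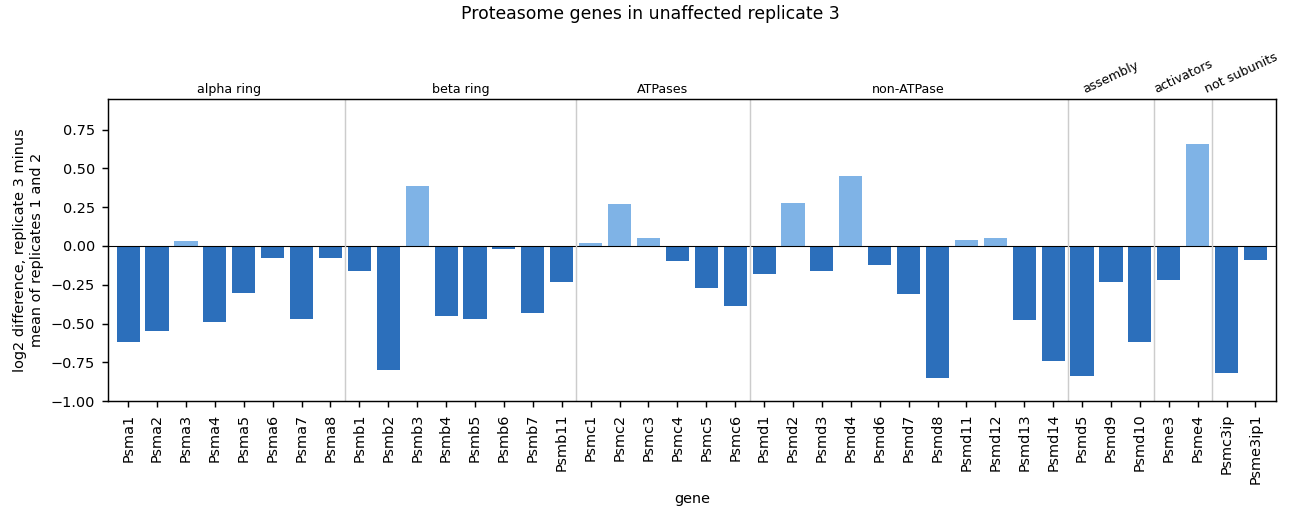
Log2 value of each member in unaffected replicate 3 minus the mean of unaffected replicates 1 and 2, by class; dark bars are below 0 and light bars above it. The bars are below 0 for 30 of 40 members, and Psme4 and Psmd4 reach 0.66 and 0.45 above it.

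Another 46 probe sets were annotated to 22 of the members, and 30 of them had a difference of the same sign as the one used. Of the 29 that were brighter than the median value, 22 did so. In 6 members a bright probe set had the opposite sign: Psma3, Psmc2, Psmd6, Psmd7, Psmd11 and Psme4. The sizes were small on both sides; for Psmc2 the probe sets gave 0.18 and -0.12, and for Psmd7 -0.25 and 0.10. Psmb4 had a second probe set nearly as bright, with a difference of 0.45 (SE 0.12) against 0.19 (SE 0.15) for the one used when all probe sets were fitted, and Psma6 a second bright one at 0.05 (SE 0.16). The used probe sets of Psma6 and Psmc2 carry the x suffix and those of Psmd11, Psme4 and Psmc3ip the s suffix, which mark probes that can match more than 1 transcript.

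**Figure D5:**
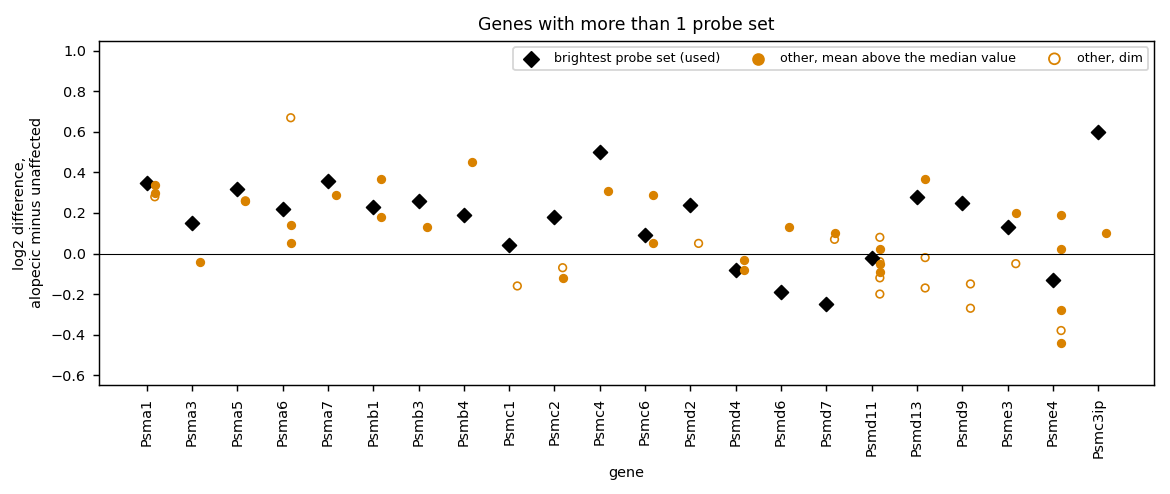
Log2 difference, alopecic minus unaffected, of every probe set of the 22 members with more than 1; black diamonds are the probe sets used, filled circles other probe sets above the median value and open circles dim ones. Differences of the 46 other probe sets run from -0.44 for Psme4 to 0.67 for a dim probe set of Psma6.

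Genes that build, assist or regulate the proteasome were described from lists, with 43 of 55 entries measured. None of the 7 assembly chaperones passed, with differences from -0.20 to 0.36 and a median of 0.23. Pomp, which guides maturation of the beta ring and is needed for both kinds of core particle, had 12.29, 12.28 and 12.41 in alopecic and 12.10, 12.04 and 11.75 in unaffected skin, or 0.36 (SE 0.13, limma adjusted p = 0.643). Psmg3 differed by 0.30 (SE 0.16) and Ecpas, a proteasome adaptor, by -0.20 (SE 0.12). Pomp was the 1 chaperone whose groups did not overlap with alopecic skin higher, and Ecpas the 1 with it lower, where 6.93% and 6.12% of all genes did so. Of 16 associated proteins, such as ubiquitin shuttles and deubiquitinases, 0 passed and the median was 0.12; Psmf1, Sem1 and Ube3a differed by 0.16 (SE 0.11), 0.15 (SE 0.13) and 0.20 (SE 0.18).

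Of the ubiquitin genes and activating enzymes, 2 of 7 were measured by a probe set of their own. Uba7, which activates the interferon-induced modifier ISG15 rather than ubiquitin, rose: it had 8.70, 8.67 and 8.54 in alopecic and 6.42, 6.75 and 6.86 in unaffected skin, a difference of 1.96 (SE 0.15, limma adjusted p = 0.0133). It passed in 1 of the 6 fits with 1 array left out (adjusted p from 0.0263 to 0.0958). Uba6, which activates ubiquitin, differed by 0.38 (SE 0.23). Of 7 regulators of proteasome genes 0 passed: Nfe2l1 differed by 0.05 (95% interval -0.75 to 0.85), Nfe2l2 by 0.10 (-0.21 to 0.40), Maff by -0.72 (SE 0.35), Keap1 by 0.43 (SE 0.30) and Ngly1 by -0.17 (SE 0.14). Without unaffected replicate 3, Keap1 was at 0.76 (limma unadjusted p = 0.00232, adjusted p = 0.211) and Nfe2l1 at 0.39. Of 7 oxidative stress genes under Nfe2l2, 0 passed and the median was -0.15; Txnrd1, Nqo1 and Slc7a11 differed by -0.45 (SE 0.22), 0.54 (SE 0.36) and -0.27 (SE 0.25). Without unaffected replicate 3 the median was -0.51, and Txnrd1 was at -0.63, Nqo1 at 0.90 and Slc7a11 at -0.52. Slc7a11 was dim, with values of 4.53 to 5.36, below the lowest array median of 6.11.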

How the data were processed

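RNA from skin was hybridised to 1 oligonucleotide array per mouse. Expression values in the table that the authors deposited are on a log2 scale; the submitters' processing notes name RMA, which corrects background, normalizes arrays and summarises probes. The sources used here give neither its version nor a genome build. RMA removes a difference in total RNA and compresses differences of dim genes. The values ran from 3.07 to 14.92 and were used as deposited.

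Of 45101 probe sets, 34945 had 1 gene symbol, updated through RefSeq (GRCm38.p6) for 34741; the brightest probe set stood for each of 18193 genes. Members were taken by the platform symbol, 86 probe sets in all. limma 3.58.1 in R 4.3.3 (lmFit, eBayes) compared the groups over all genes, two-sided, with Benjamini-Hochberg adjustment and a threshold of 0.05; every adjusted p of a gene comes from this fit. The fit was also run on simulated data, with independent values and 1 spread per gene for all arrays. Those data held no array like unaffected replicate 3, so that run cannot speak to its effect. Intervals are 95% intervals of the fit for single genes, unadjusted, and errors of single genes are its standard errors. Errors of the catalytic pairs do not come from the fit. They come from the pooled standard deviation of the within-array differences. With 3 arrays in each group, their number limits the precision.

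Members, classes and lists were chosen with earlier results of these data known, and the motifs after the values were seen. All members are named; values in every array are given for those whose groups did not overlap, the highest and lowest of each class, the catalytic pairs and a few singled out after their values were seen (such as Psmd7, Psmb2 and Psmd14). Of each related list the 3 genes of smallest p are named, with Nfe2l1 and Nfe2l2 added. The series design text gives each array a mouse of its own.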

Additional observations from a re-analysis of the deposited data

How the results depend on the processing

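No member passed the limma test under any of the 14 alternatives; the lowest adjusted p of a member was 0.157, for Psmc4 with estimated array weights (difference 0.63). The member median was 0.144 in the main fit. It stayed between 0.052 (arrays centred on their medians) and 0.188 (without unaffected replicate 1). With arrays left out it ran from 0.059 to 0.188. Each lay within 0.1 of the value reported. That 0.1 is the standard deviation within groups of the members' median in each array, not an error of the difference. Falls from 0.144 to 0.052 or 0.059 stayed within it, so it is a loose bound. Up to 9 members changed sign under an alternative, none of them past the threshold. The number of genes past the threshold over the whole table was 50, and 139 with array weights. With the replicate number as a block it was 0 by limma, with 873 genes at an unadjusted p under 0.05. The same-numbered arrays did not deviate together (correlations -0.13, -0.20 and -0.33). The labels name no pairing of the mice, but with 3 arrays in each group these correlations cannot exclude one. Under that block Psmb9, Psmb10 and Uba7 missed the threshold (limma adjusted p = 0.173, 0.147 and 0.227). With 1 array left out the number of genes was 4 to 39. Psmb8 passed with dim genes left out (adjusted p = 0.0476) and with array weights (0.0176), over a range of 0.0176 to 0.511; Psme1 passed with array weights (0.0243), over 0.0243 to 0.324. Uba7 missed the threshold with the mean of all probe sets (difference 1.56, adjusted p = 0.0552). Dim signals limit Psma8 and Psmb11, and the exact test over 3 and 3 arrays cannot go below 0.1.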

Other observations

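Psmc3ip, a recombination factor that binds the ATPase subunit Psmc3, had the same high and low arrays as the dividing-cell markers. It was highest in alopecic replicates 2 and 3 (8.15 and 7.95) and unaffected replicate 1 (7.83) and lower in alopecic replicate 1 (6.66) and unaffected replicates 2 and 3 (6.70 and 6.44). The mean of the 6 dividing-cell markers was 11.49, 11.18 and 11.10 in the first 3 of these arrays and 10.18, 9.78 and 7.93 in the others. This was noticed after the values were seen and was not tested.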
